A study of Homo sapiens with 9 samples.

Results

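The enzymes described here make and break down glutamine, glutamate, aspartate, asparagine and proline, and were taken by name from a list of 7 genes, GLUL, GLUD1, GOT1, GOT2, ASNS, PYCR1 and ALDH18A1. Of these, 6 had a row among the 22290 genes of the table, and ASNS was not analysed here. RNA was sequenced from 9 libraries labelled IMR-32, an established human neuroblastoma line known for amplification of MYCN. There were 3 libraries of parental (WT) cells, 3 labelled TRAP-1 knockdown (KD) and 3 labelled TRAP-1 overexpression (OE), where TRAP-1 is the mitochondrial member of the Hsp90 chaperone family. The KD and OE cells had been made earlier by the study's authors from the same line, and nothing in the sources used here says whether libraries of a group came from separate cultures. The p-values therefore measure the spread between these libraries, which may be technical. Values are regularized log2 values (rlog), which correct for library size and pull each gene's values toward its own mean, so differences between groups are smaller than they would be without the shrinkage. Such values do not show how deeply a library was sequenced.

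Glutamine carries nitrogen for nucleotide and amino sugar synthesis, and tumour cells commonly take it up in large amounts. GLUL (glutamine synthetase) joins ammonia to glutamate in the cytosol, and GLUD1 (glutamate dehydrogenase) turns glutamate into the citric acid cycle intermediate 2-oxoglutarate in mitochondria. GOT1 in the cytosol and GOT2 in mitochondria move the amino group between glutamate and aspartate, and both belong to the malate-aspartate shuttle. ALDH18A1 starts proline synthesis from glutamate, and PYCR1 carries out the last step of that route in mitochondria.

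TRAP1, the gene named by the labels, had rlog values of 10.67, 10.66 and 10.65 in the parental libraries, 10.79, 10.79 and 10.83 in those labelled KD, and 10.67, 10.63 and 10.74 in those labelled OE. In the libraries labelled KD it exceeded parental by 0.14 (standard error, SE, 0.025, limma adjusted p = 1.8e-05), which is against the label. In the libraries labelled OE the difference was 0.018 (adjusted p = 0.643 from limma), and it was -0.012 without OE replicate 3 and 0.064 (adjusted p = 0.0343 from limma) once the median of neighbouring genes was removed. TRAP1 was lower in OE than in KD, again against the labels, by a difference of -0.12 (adjusted p = 1.5e-04 from limma). Every OE library lay below every KD library, and the difference was -0.065 with neighbouring genes removed (adjusted p = 0.025 from limma). KD and OE are therefore names of labelled libraries wherever a direction is given. Other annotated genes overlap 28.5% of the exonic bases of TRAP1.

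The labelled cell type was checked against its markers. Of 15 sympathetic neuroblast markers 9 had a row, with ISL1 the most abundant at a mean rlog of 9.29, and 4 lay under a mean rlog of 5 (PHOX2A, TH, CHGA and MYCN). MYCN had a mean rlog of 2.54 and TH of 2.73, while HAND2 (6.34) and GATA3 (7.27) were higher, and DBH was not analysed here. Summed on the linear scale (2 to the rlog), the list came to 1587 to 1626 in the parental libraries, 1458 to 1495 in those labelled KD and 1492 to 1578 in those labelled OE. Of 12 epithelial markers 9 had a row, led by KRT18 (mean rlog 12.04), with EPCAM at 2.58 and KRT8 at 8.96. Their sum was 6016 to 6082 in parental libraries, 6039 to 6268 in KD and 5456 to 5525 in OE. Of 11 mesenchymal and Schwann precursor markers 9 had a row, led by VIM at a mean rlog of 15.89, and their sum was 78061 to 78360 in parental libraries, 90370 to 91091 in KD and 93950 to 95524 in OE. The defining neuroblast genes MYCN and TH were thus low in all 9 libraries, which is against the label of the cell line, so IMR-32 is here the name the labels give, and the mesenchymal sum was higher in both labelled groups. In KD 1 neuroblast, 1 epithelial and 3 mesenchymal markers were called higher and 5, 2 and 2 lower, and in OE 0, 1 and 7 were higher and 2, 3 and 0 lower (limma). The shares of the 3 lists called were 66.7%, 33.3% and 55.6% in KD, against 53.7% of all genes, and 22.2%, 44.4% and 77.8% in OE, against 34.8%. The part of these markers in the differences below was not tested, and in bulk RNA fewer cells of a kind and less RNA per cell cannot be told apart.

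All 6 enzymes differed from parental in the libraries labelled KD at an adjusted p under 0.05 (limma), 4 lower and 2 higher. Of all 22290 genes, 53.7% were called in this comparison, 26.9% higher and 26.9% lower, and in 59.2% all 3 libraries of one group lay beyond all 3 of the other, as in all 6 enzymes. Between the libraries labelled OE and parental 4 enzymes were called, 3 higher and 1 lower, against 34.8% of all genes, 16.9% higher and 18.0% lower. In these 4 the groups did not overlap, which held for 43.2% of all genes. Between the libraries labelled OE and KD all 6 were called and all were higher in OE, against 47.3% of all genes, 23.5% higher and 23.8% lower, and the groups did not overlap in 5 of them, against 54.1% of all genes. Among the 9956 genes whose rlog averaged 8 or more, near the level of the enzymes, 75.8%, 56.7% and 68.3% were called in the 3 comparisons. The comparisons share libraries, so their counts are not independent. No enzyme differed by more than 0.5 in rlog. The study set its log2 fold threshold at the same value, but for its own fold changes. Since rlog shrinks differences, these values do not show whether an enzyme met that threshold in the study.

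**Figure D1:**
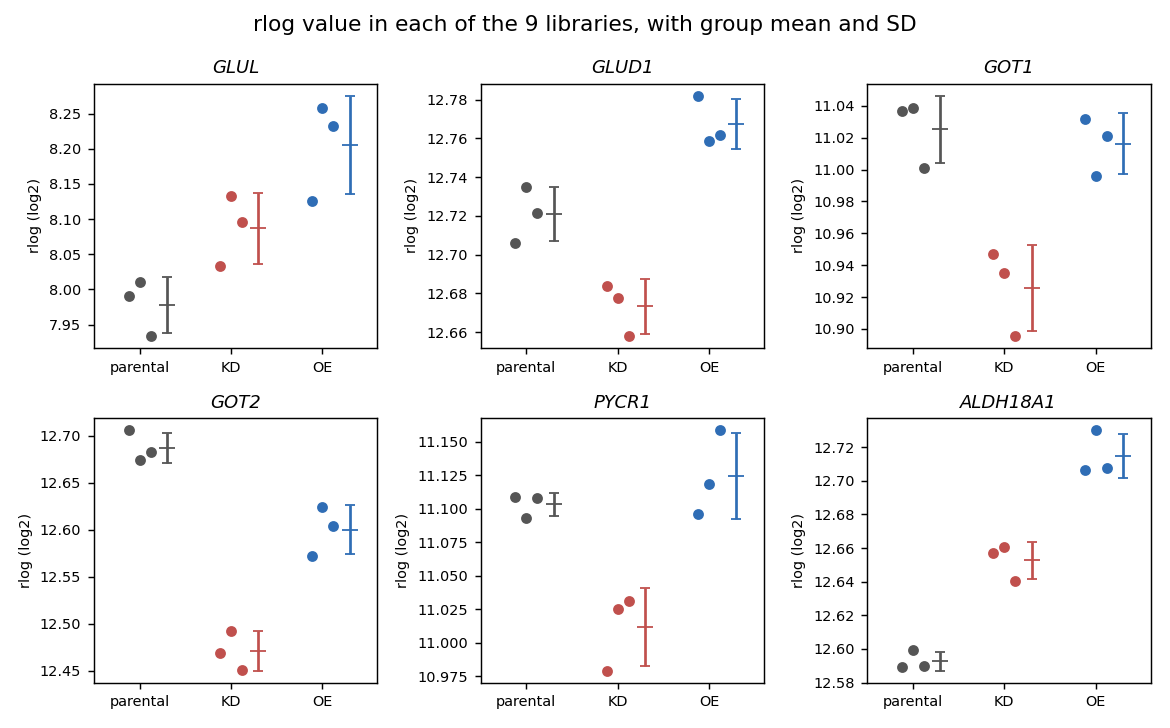
Value of each of the 6 enzyme genes (rlog, log2 scale) in the 3 parental, 3 KD and 3 OE libraries, 1 point per library, with the group mean and SD beside the points; each panel has its own axis, which does not start at 0. GOT2 is highest in the parental libraries, whereas GLUL and ALDH18A1 are lowest there.

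GOT2, the mitochondrial aspartate aminotransferase, showed the largest fall of the 6 enzymes in KD. Its rlog values were 12.71, 12.67 and 12.68 in the parental libraries, 12.47, 12.49 and 12.45 in those labelled KD, and 12.57, 12.62 and 12.60 in those labelled OE. The 3 groups did not overlap, with KD lowest and OE between KD and parental. GOT2 was lower than parental by a difference of -0.22 in KD (SE 0.017, limma adjusted p = 1.2e-12) and of -0.088 in OE (SE 0.017, limma adjusted p = 1.0e-04). Between OE and KD the difference was 0.13 (adjusted p = 1.2e-07 from limma). GOT2 (ENSG00000125166) lies on chr16:58707131-58734342 of GRCh38 on the minus strand, shares 4.32% of its exonic bases with a gene on the other strand and has 6 annotated pseudogenes, so part of its reads may be uncertain.

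GOT1, the cytosolic aspartate aminotransferase, had rlog values of 11.04, 11.04 and 11.00 in the parental libraries, 10.95, 10.93 and 10.90 in KD, and 11.03, 11.00 and 11.02 in OE. The libraries labelled KD lay below all others, and the OE and parental libraries overlapped. The difference from parental was -0.10 in KD (SE 0.022, limma adjusted p = 2.8e-04). In OE it was -0.0092 (95% confidence interval -0.055 to 0.036, adjusted p = 0.803 from limma), with the sign turning under equal library medians, quantile normalization and without OE replicate 2. Between OE and KD it was 0.091 (adjusted p = 1.0e-03 from limma). GOT1 (ENSG00000120053) lies on chr10:99396870-99430624 on the minus strand and shares no exonic bases with other annotated genes.

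GLUD1, which feeds glutamate carbon into the citric acid cycle, had rlog values of 12.71, 12.73 and 12.72 in the parental libraries, 12.68, 12.68 and 12.66 in KD, and 12.78, 12.76 and 12.76 in OE. It was lower than parental in all 3 KD libraries and higher in all 3 OE libraries, by small amounts. The difference was -0.048 in KD (SE 0.016, limma adjusted p = 0.0101) and 0.047 in OE (SE 0.016, limma adjusted p = 0.0188), and between OE and KD it was 0.094 (adjusted p = 5.7e-06 from limma). The call in KD was lost under quantile normalization (-0.014, adjusted p = 0.479 from limma), with neighbouring genes removed (-0.030) and without KD replicate 3 (-0.040) or parental replicate 2 (-0.041). The call in OE was lost with no variance trend (adjusted p = 0.0689 from limma) and without OE replicate 1 or parental replicate 1 (0.039 in both). GLUD1 (ENSG00000148672) lies on chr10:87050202-87094843 on the minus strand, shares 3.25% of its exonic bases with SHLD2 on the other strand and has 4 annotated pseudogenes. GLUD2, a near-identical retrocopy, can take reads of GLUD1, and its differences of -0.051 in KD and 0.056 in OE were not called (adjusted p = 0.363 and 0.380 from limma). Leaving out 1 library moved these 2 differences widely, to between -0.0955 and -0.00877 in KD and between 0.0109 and 0.0976 in OE. Between OE and KD GLUD2 differed by 0.106 (adjusted p = 0.0509 from limma), the same direction as GLUD1, and was called with only 6 libraries fitted (adjusted p = 0.0395 from limma), with equal library medians (0.117), with the replicate number as a block, and without KD replicate 3 (0.137) or OE replicate 3 (0.131).

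GLUL, the glutamine-making enzyme, had the lowest level of the 6. Its rlog values were 7.99, 8.01 and 7.93 in the parental libraries, 8.03, 8.13 and 8.10 in KD, and 8.13, 8.26 and 8.23 in OE. Every KD and OE library lay above every parental library, and the KD and OE libraries overlapped. GLUL was higher than parental by 0.11 in KD (SE 0.041, limma adjusted p = 0.0248) and by 0.23 in OE (SE 0.041, limma adjusted p = 3.3e-05), the largest rise among the 6 in OE. Between OE and KD it differed by 0.12 (adjusted p = 0.016 from limma). The call in KD was lost under quantile normalization (0.083), with neighbouring genes removed (0.084) and without KD replicate 2 (0.086), KD replicate 3 (0.104) or parental replicate 3 (0.086). That between OE and KD was lost without KD replicate 1 (0.092), OE replicate 2 (0.092) or OE replicate 3 (0.105). GLUL (ENSG00000135821) lies on chr1:182378098-182392206 on the minus strand and has 4 annotated pseudogenes.

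ALDH18A1, the first enzyme of proline synthesis, had rlog values of 12.59, 12.60 and 12.59 in the parental libraries, 12.66, 12.66 and 12.64 in KD, and 12.71, 12.73 and 12.71 in OE. The 3 groups did not overlap, with parental lowest and OE highest. Against parental the gene rose by 0.060 in KD (SE 0.015, limma adjusted p = 0.00132) and by 0.12 in OE (SE 0.015, limma adjusted p = 1.1e-07), and the difference between OE and KD was 0.062 (adjusted p = 0.00116 from limma). Under quantile normalization the rise in KD was 0.094 and the difference between OE and KD 0.040, both still called. ALDH18A1 (ENSG00000059573) lies on chr10:95605941-95656711 on the minus strand and shares no exonic bases with other annotated genes.

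PYCR1, at the other end of the same route, did not follow ALDH18A1 in KD. Its rlog values were 11.11, 11.09 and 11.11 in the parental libraries, 10.98, 11.03 and 11.03 in KD, and 11.10, 11.12 and 11.16 in OE. The KD libraries lay below all others, and OE overlapped parental. The difference from parental was -0.092 in KD (SE 0.022, limma adjusted p = 7.4e-04) and 0.021 in OE (95% confidence interval -0.024 to 0.066, adjusted p = 0.524 from limma), and between OE and KD it was 0.11 (adjusted p = 7.7e-05 from limma). The difference in OE ranged from 0.0039 to 0.035 without 1 library. Under quantile normalization it was 0.045 (adjusted p = 0.125 from limma). With neighbouring genes removed, the difference was -0.056 in KD and 0.079 in OE, and the latter was called (adjusted p = 0.00261 from limma). PYCR1 (ENSG00000183010) lies on chr17:81932384-81942412 on the minus strand and has 29.7% of its exonic sequence in common with MYADML2 and a gene on the other strand. The library kit does not mark strand, so reads of overlapping genes cannot be told apart.

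**Figure D2:**
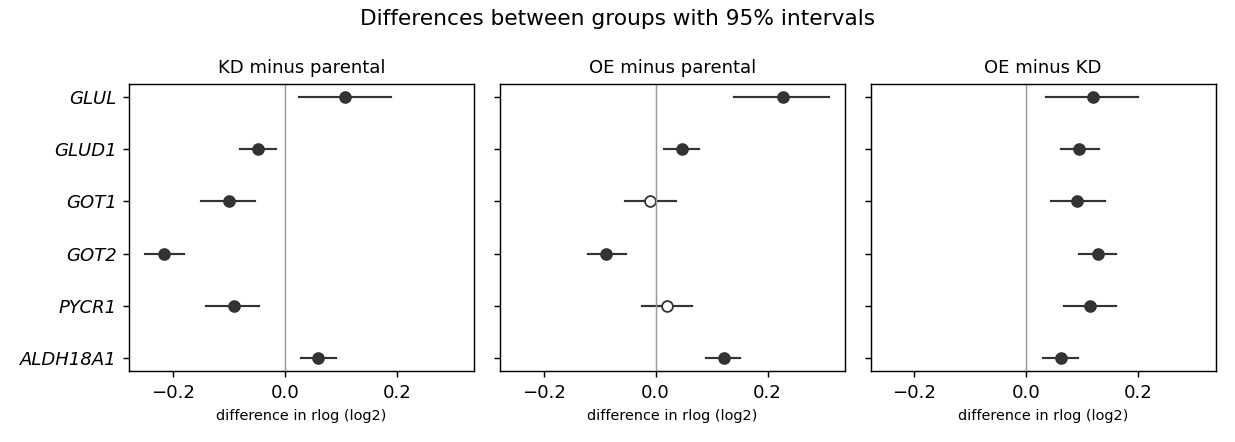
Difference in rlog (log2 scale) of the 6 enzyme genes in the 3 comparisons, with 95% confidence intervals; filled points have an adjusted p under 0.05 in limma and open points do not. All 6 lie to the right of 0 between OE and KD, while against parental they lie on both sides, and the sign of GOT1 in OE turns with equal library medians or quantile normalization.

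Levels were compared between genes per kilobase of exon, as 2 to the rlog divided by the combined exon length. In the parental libraries GOT2 was highest at 1758 ± 20 (SD, n = 3), followed by ALDH18A1 at 1643 ± 6.5 (SD, n = 3), GOT1 at 860.0 ± 13 (SD, n = 3), PYCR1 at 762.3 ± 4.6 (SD, n = 3), GLUD1 at 472.7 ± 4.7 (SD, n = 3) and GLUL at 19.96 ± 0.55 (SD, n = 3). Each gap between neighbours in this order was larger than the spread of either gene. ALDH18A1 was above GOT2 in the labelled groups, at 1713 ± 13 against 1513 ± 22 in KD and 1788 ± 16 against 1655 ± 30 in OE (SD, n = 3 each). The order depends on the length used: divided by the longest transcript, GOT2 was highest in every group (2724, 2345 and 2564 in parental, KD and OE), ALDH18A1 next (1843, 1921 and 2006), and GLUD1 stood above GOT1 in parental (1079 against 1054).

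**Figure D3:**
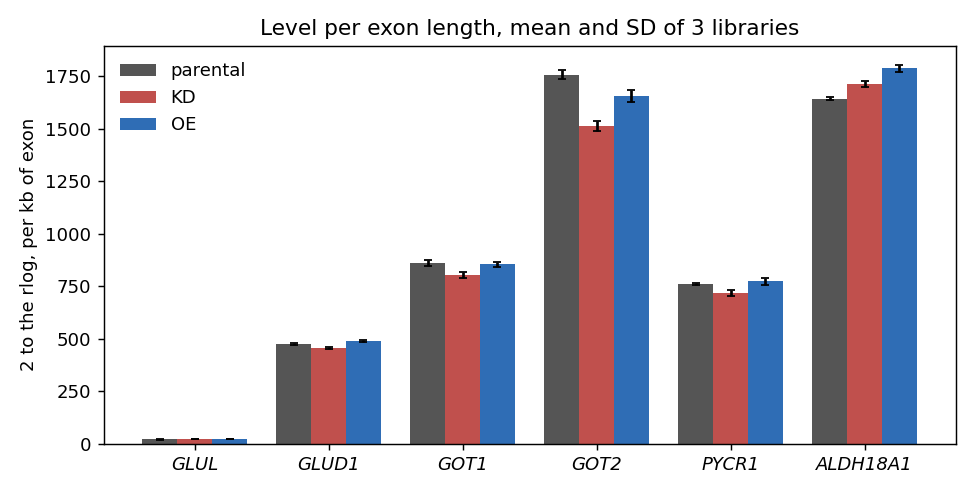
Level of the 6 enzyme genes per kilobase of exon (2 to the rlog, linear scale from 0), as the mean of 3 libraries per group with the SD as error bars. GOT2 and ALDH18A1 stand highest and GLUL lowest in all 3 groups.

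ALDH18A1, GOT1 and GLUD1 lie on the long arm of chromosome 10, ALDH18A1 and GOT1 3.8 Mb apart and GLUD1 and ALDH18A1 8.6 Mb apart. The 3 were compared with neighbours in the same 20-Mb stretch whose rlog averaged 8 or more, which were 69 for each. In KD, the median difference of the neighbours of GOT1 and GLUD1 was -0.018 and that of ALDH18A1 -0.020, with quartiles at -0.16 and 0.10. ALDH18A1 rose and GOT1 and GLUD1 fell in KD, so these genes moved in different directions within one stretch. In OE, where the neighbours' median was -0.019, ALDH18A1 (0.12) was above 62 of its 69 neighbours and GOT1 (-0.0092) above 35. For GOT2 on chromosome 16, the median of 58 neighbours was -0.036 in KD, and 12 of them had a lower difference than GOT2.

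**Figure D4:**
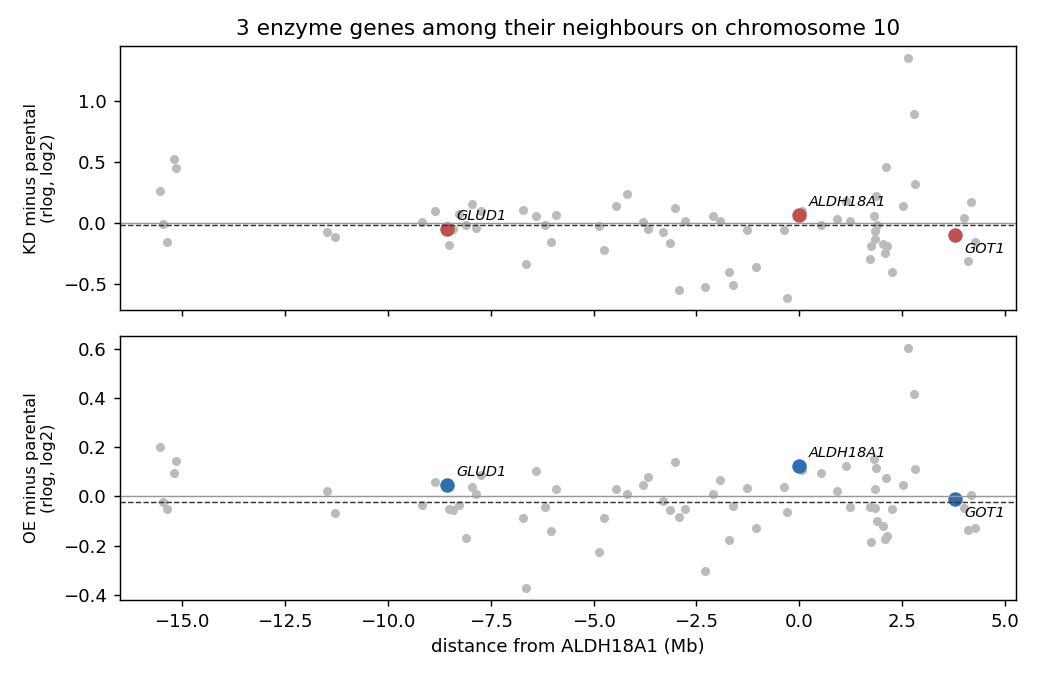
Difference from parental (rlog, log2 scale) in KD (top) and OE (bottom) of genes within one 20-Mb stretch of chromosome 10, against distance from ALDH18A1 in Mb; grey points are neighbours whose rlog averaged 8 or more and the dashed line is their median. ALDH18A1 is above 0 in both panels and GOT1 is below it in KD; the sign of GOT1 in OE turns with equal library medians or quantile normalization.

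Promoter sequences of RefSeq (GRCh38.p14) matched 5 of the 6 enzymes in 6 entries, GLUL having 2. Those of GOT1 and ALDH18A1 are shown because these close neighbours moved in opposite directions in KD, as the 250 bases before the start site, 5′ to 3′ on the minus strand. Capitals mark a match, on either strand, to TGATGNAAN, the composite element of ATF4 and C/EBP factors, or to CACGTG, the E-box of MYC and related factors. The first lies at chr10:99430625-99430874 and the second at chr10:95656712-95656961.
GOT1: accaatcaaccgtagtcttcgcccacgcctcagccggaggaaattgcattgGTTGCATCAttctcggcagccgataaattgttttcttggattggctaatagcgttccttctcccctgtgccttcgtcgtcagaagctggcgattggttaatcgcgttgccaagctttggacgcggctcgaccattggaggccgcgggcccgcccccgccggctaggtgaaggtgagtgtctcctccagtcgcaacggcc
ALDH18A1: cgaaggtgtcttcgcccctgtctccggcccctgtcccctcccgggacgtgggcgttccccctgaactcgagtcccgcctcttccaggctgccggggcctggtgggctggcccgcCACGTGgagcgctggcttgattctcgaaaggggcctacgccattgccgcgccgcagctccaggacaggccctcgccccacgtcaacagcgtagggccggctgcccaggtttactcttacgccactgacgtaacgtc
GOT1 held 1 match to TGATGNAAN, on the other strand, and none to CACGTG, and ALDH18A1 held 1 match to CACGTG and none to TGATGNAAN. The windows of GLUL, GLUD1 and GOT2 held neither. Of all 35116 promoter windows of this length, 3.13% held TGATGNAAN and 6.34% held CACGTG. A match describes the letters of the window and is not evidence of binding.

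Genes that act beside these enzymes were grouped in 8 lists of 61 genes, 51 with a row. In KD 37 of the 51 were called (72.5%, against 53.7% of all genes and 75.8% of those whose rlog averaged 8 or more), 14 higher and 23 lower, with a median difference of -0.051 against -5.1e-04 over all genes. In OE 25 were called (49.0%, against 34.8% and 56.7%), 7 higher and 18 lower, with a median of -0.035 against 3.9e-04 over all genes. These became 9 higher and 14 lower with library medians made equal, and 11 higher and 15 lower with neighbouring genes removed. Between OE and KD 33 were called (64.7%, against 47.3% and 68.3%), 21 higher and 12 lower, with a median of 0.041 against 7.8e-04. These 3 shares were a little below those of genes whose rlog averaged 8 or more.

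Of the 5 measured genes of glutamine and glutamate breakdown, 2 fell in KD (40.0%, against 53.7% of all genes and 75.8% of those whose rlog averaged 8 or more) and none was called in OE (against 34.8% and 56.7%). Their median difference was -0.051 in KD and -0.035 in OE. GPT2, the mitochondrial alanine aminotransferase, fell by 0.29 in KD (SE 0.022, limma adjusted p = 2.5e-13). GLS2 was not analysed here. Between OE and KD 2 were higher and none lower (40.0%, against 47.3% and 68.3%).

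The enzymes that spend glutamine nitrogen went both ways. Of 9 measured, 4 were higher and 4 lower in KD, 1 was higher and 3 lower in OE, and 1 was higher and 5 lower in OE than in KD. The shares called were 88.9%, 44.4% and 66.7%, against 75.8%, 56.7% and 68.3% of genes whose rlog averaged 8 or more and 53.7%, 34.8% and 47.3% of all genes, with medians of 0.015, -0.035 and -0.066. GFPT1, the first enzyme of hexosamine synthesis, rose by 0.18 in KD, and CTPS2, a CTP synthase, fell by 0.37 (adjusted p = 2.1e-09 and 6.4e-15 from limma). In OE NADSYN1, which makes NAD, rose by 0.16, and GFPT2, the paralogue of GFPT1, fell by 0.25 (adjusted p = 5.7e-06 and 4.0e-13 from limma). The difference of NADSYN1 between OE and KD, 0.033 and not called, ranged from 0.0099 to 0.054 without 1 library. It became called with neighbouring genes removed (0.079, adjusted p = 0.0109 from limma).

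Among genes of aspartate and asparagine use, 5 of 8 were measured, and 1 was higher and 2 lower in KD, 2 lower in OE, and 2 higher and 2 lower in OE than in KD. The shares called were 60%, 40% and 80%, with medians of 0.0072, -0.048 and 0.026. Of all genes 53.7%, 34.8% and 47.3% were called, and of genes whose rlog averaged 8 or more 75.8%, 56.7% and 68.3%. The medians in KD and between OE and KD are the differences of ASS1, not called and near the floor at a mean rlog of 0.73. ASL, of the urea cycle, rose by 0.15 in KD (adjusted p = 1.2e-04 from limma), whereas ADSS1, which uses aspartate to make adenylosuccinate, fell by 0.46 in KD and by 0.26 in OE (adjusted p = 1.5e-11 and 3.6e-06 from limma). Of the other 4 measured genes of the malate-aspartate shuttle, 1 was higher in KD and 1 was lower in OE. Between OE and KD, 2 were lower in OE. These shares of 25%, 25% and 50% were below those of genes whose rlog averaged 8 or more (75.8%, 56.7% and 68.3%). Of all genes 53.7%, 34.8% and 47.3% were called, and the medians of the 4 shuttle genes were 0.023, -0.0045 and -0.035. MDH2, the mitochondrial malate dehydrogenase, rose by 0.14 in KD (adjusted p = 6.1e-10 from limma), opposite to GOT1 and GOT2 of the same shuttle. SLC25A11, the oxoglutarate carrier, had a difference of -0.047 in OE (adjusted p = 0.0467 from limma), a call lost under both other scalings, with no variance trend, with only 6 libraries fitted, with neighbouring genes removed and without any 1 of the 6 libraries. Its difference between OE and KD (-0.045, adjusted p = 0.0432 from limma) lost its call under the same settings (adjusted p of 0.0517 to 0.263 from limma), and without KD replicate 2 (-0.038), KD replicate 3 (-0.042), OE replicate 1 (-0.040), OE replicate 2 (-0.047) or OE replicate 3 (-0.0475).

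Of 7 measured genes of proline and ornithine metabolism, 4 were higher and 2 lower in KD, 3 higher and 1 lower in OE, and 3 higher and none lower in OE than in KD. With neighbouring genes removed, P4HA1 (-0.057) and OAT (-0.039), not called between OE and KD before (-0.032 and -0.015), were lower in OE (adjusted p = 0.0124 and 0.0408 from limma). The shares called were 85.7%, 57.1% and 42.9%, against 75.8%, 56.7% and 68.3% of genes whose rlog averaged 8 or more and 53.7%, 34.8% and 47.3% of all genes, with medians of 0.052, 0.050 and 0.064. P4HA1, a subunit of the enzyme that hydroxylates proline in collagen, rose by 0.50 in KD and by 0.47 in OE (adjusted p = 2.3e-20 and 7.8e-19 from limma). PYCR3, the cytosolic counterpart of PYCR1, fell by 0.35 in KD and by 0.16 in OE (adjusted p = 2.1e-13 and 7.6e-06 from limma), and by 0.13 and 0.069 with neighbouring genes removed. OAT, which makes the proline precursor from ornithine, rose by 0.052 in KD (adjusted p = 0.00513 from limma), and in OE its difference was 0.037 (adjusted p = 0.066 from limma), called under both other scalings and with the filter at a mean rlog of 5, but 0.0061 with neighbouring genes removed (adjusted p = 0.799 from limma). ALDH4A1, of proline breakdown, differed by 0.074 in KD (adjusted p = 0.0216 from limma), a call lost without KD replicate 2 (0.060) or parental replicate 1 (0.070), and by 0.12 with neighbouring genes removed. In OE ALDH4A1 differed by 0.050 (adjusted p = 0.162 from limma), with a range of 0.03 to 0.0625 without 1 library. It was called with neighbouring genes removed (0.105, adjusted p = 0.00196 from limma). PRODH was not analysed here.

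**Figure D5:**
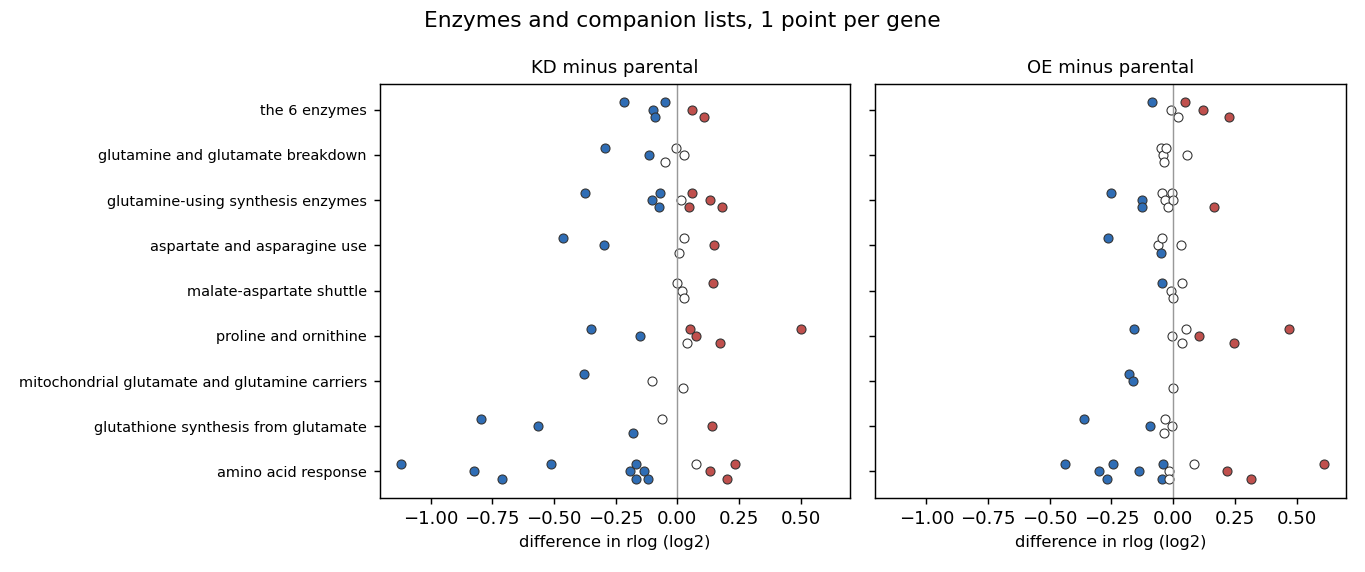
Difference from parental (rlog, log2 scale) of the 6 enzyme genes and of the 51 measured genes of 8 companion lists, 1 point per gene, in KD (left) and OE (right); red points were called higher, blue points called lower and open points not called by limma. ATF3, in the amino acid response, has the lowest value, -1.12 in KD.

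Of the 3 carriers of glutamate and glutamine, 1 fell in KD and 2 in OE. Between OE and KD, 1 was higher and 1 lower in OE. The shares called were 33.3%, 66.7% and 66.7%, with medians of -0.10, -0.16 and 0.10. Of all genes 53.7%, 34.8% and 47.3% were called, and of genes whose rlog averaged 8 or more 75.8%, 56.7% and 68.3%. The medians in KD and between OE and KD are the differences of SLC25A18, not called and at a low mean rlog of 4.5. SLC1A5, a transporter that imports glutamine, fell by 0.38 in KD and by 0.18 in OE (adjusted p = 6.2e-17 and 1.2e-08 from limma), with 23.8% of its exonic bases shared with other genes. For glutathione synthesis from glutamate, 1 of 5 genes was higher and 3 lower in KD, 2 were lower in OE, and 3 were higher and 1 lower in OE than in KD. The shares called were 80.0%, 40.0% and 80.0%, against 75.8%, 56.7% and 68.3% of genes whose rlog averaged 8 or more and 53.7%, 34.8% and 47.3% of all genes, with medians of -0.18, -0.035 and 0.087. GCLM, the modifier subunit of the first enzyme, fell by 0.80 in KD and by 0.36 in OE (adjusted p = 1.1e-20 and 2.2e-11 from limma). GSS, the second enzyme, rose by 0.14 in KD (adjusted p = 3.7e-08 from limma) and by 0.48 with neighbouring genes removed. In OE its difference was -0.035 (adjusted p = 0.128 from limma), and with neighbouring genes removed it was higher and called (0.0811, adjusted p = 3.7e-04 from limma).

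The amino acid response, which ATF4 drives when amino acids are short, had more genes lower than higher in KD. Of 13 measured genes, 3 were higher and 9 lower in KD, 3 higher and 7 lower in OE, and 9 higher and 1 lower in OE than in KD. The shares called were 92.3%, 76.9% and 76.9%, against 75.8%, 56.7% and 68.3% of genes whose rlog averaged 8 or more and 53.7%, 34.8% and 47.3% of all genes, with medians of -0.17, -0.043 and 0.15. ATF4 fell by 0.12 in KD (adjusted p = 8.5e-09 from limma), and its difference of -0.043 in OE (adjusted p = 0.0172 from limma) was not called with no variance trend, equal library medians, neighbouring genes removed (-0.0013), or without OE replicate 2 (-0.028), parental replicate 1 (-0.038) or parental replicate 2 (-0.034). ATF3 fell by 1.12 in KD and by 0.44 in OE (adjusted p = 7.4e-23 and 1.0e-11 from limma). PSAT1, a serine synthesis enzyme that uses glutamate as amino donor, fell by 0.71 in KD (adjusted p = 1.9e-26 from limma) and by 0.35 with neighbouring genes removed. In OE PSAT1 differed by -0.046 (adjusted p = 0.0273 from limma), with a range of -0.054 to -0.038 without 1 library and 0.011 with neighbouring genes removed. ATF4 and PSAT1 each have 4 annotated pseudogenes. The OE call of PSAT1 was lost with neighbouring genes removed, under both other scalings, with no variance trend, and without OE replicate 1 (-0.045), OE replicate 3 (-0.040), parental replicate 1 (-0.049) or parental replicate 2 (-0.038). VLDLR, a lipoprotein receptor, rose by 0.23 in KD and by 0.61 in OE (adjusted p = 4.6e-06 and 2.9e-14 from limma), and the rise in KD was not called with neighbouring genes removed (0.085).

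For each enzyme, the 3 genes with the closest pattern over the 9 libraries were found among 9781 genes with a symbol whose rlog averaged 8 or more, by the root mean square difference of centred rlog values. For GLUD1 they were THOC2, DHX36 and SKP1 (0.0064 to 0.010), and for GOT2 AKAP1, MRPS7 and RBM4B (0.014 to 0.017). For GOT1 they were PSD3, NUP107 and TM4SF1 (0.013 to 0.014), for PYCR1 INPP5B, SEPTIN9 and SLC35B1 (0.012 to 0.014) and for ALDH18A1 ZFP36L1, VCL and RNF146 (0.013 to 0.014). The least close were those of GLUL, with FAHD2B, FBXO41 and COL12A1 at 0.036 to 0.042. None of these genes was another of the 6 enzymes.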

How the data were processed

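RNA libraries (TruSeq RNA v2, which does not mark strand) of 9 samples were sequenced by the authors, who used cutadapt for trimming, HISAT2 for alignment to GRCh38 and featureCounts of Subread for counts per gene, and removed genes with few counts. The deposited values are log2 values, the rlog transform of DESeq2 by the authors, and their versions are not given in the sources used here. Of 22290 gene IDs, 22195 matched a symbol. Groups were compared with limma 3.58.1 in R 4.3.3 (1 mean per group, all 9 libraries, variance trend), with Benjamini-Hochberg adjustment over all 22290 genes and a call at an adjusted p under 0.05. The script was tested on simulated data. Count models were not used, since the values are not counts. Gene positions and lengths came from GENCODE on GRCh38. The alternatives were a filter at a mean rlog of 5, no trend, only the 6 libraries compared, 2 other scalings, the replicate number as a block, removal of the median of 20-Mb neighbours, a difference over 0.5 and leaving out each library. The members and lists were chosen with earlier results of these data known. Named from each list were the called genes with the largest rise and fall against parental, and isoenzymes or partners of the enzymes. Some genes that this rule names are not reported here.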

Additional observations from a re-analysis of the deposited data

Results flagged for a closer look

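GLUD1 moved in opposite directions in the 2 labelled groups: its difference from parental was -0.048 in KD and 0.047 in OE, and the direct test between OE and KD gave 0.0942 (adjusted p = 5.7e-06 from limma), with all 3 OE libraries above all 3 KD libraries. Both differences from parental lost their call under some alternatives, whereas the difference between OE and KD stayed called under every alternative fit, and was below 0.5. GLUD2, which can take reads of GLUD1, differed by 0.106 between OE and KD (adjusted p = 0.0509 from limma).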

How the results depend on the processing

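The 18 differences of the 6 enzymes were recomputed under 234 combinations with an alternative, and 215 kept direction and side of the threshold. Lost calls in KD were those of GLUL under quantile normalization (0.0834) and with neighbouring genes removed (0.0843), at 0.0856 to 0.135 without 1 library, and of GLUD1 under the same settings (-0.0137 and -0.0304), at -0.055 to -0.0401 without 1 library. GLUD1 in OE lost its call with no variance trend (0.0465), at 0.0392 to 0.0535 without 1 library, and GLUL between OE and KD ranged from 0.0916 to 0.158. PYCR1 in OE became called with neighbouring genes removed (0.079). GOT1 in OE, not called, turned with equal library medians (0.000848) and quantile normalization (0.0128), and ranged from -0.0214 to 0.00112 without 1 library. The cause was not tested.

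With a difference over 0.5 required, 0 enzymes were called in any comparison (limma; 6, 4 and 6 without that requirement), and companion genes called higher and lower were 1 and 6 in KD, 1 and 0 in OE, and 4 and 0 between OE and KD. Removing neighbours gave 11 companion genes higher in OE, against 7.

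Of 69 differences of other named genes, 6 changed sign under some alternative. SLC25A11 in KD was 0.00365 under quantile normalization and -0.00912 to 0.00901 without 1 library. In OE, GFPT1 was 0.00805 with equal medians, 0.0238 under quantile normalization and -0.0181 to 0.0155 without 1 library. MDH2 was 0.00874 with equal medians, 0.0266 under quantile normalization, 0.0171 with neighbours removed and -0.0164 to 0.00935 without 1 library. PSAT1 (0.0107) and GSS (0.0811, called) turned with neighbours removed, and TRAP1 ranged from -0.0118 to 0.0417.

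Replicate numbers did not pair parental libraries with the others. Deviations of same-numbered libraries correlated at -0.12 to 0.0213 between parental and KD, and at -0.107 to 0.00366 between parental and OE. Between KD and OE they correlated at 0.041 to 0.268, and those of differently numbered libraries at -0.262 to 0.0668. Each KD library correlated best with the OE library of its number, but OE replicate 2 correlated best with KD replicate 1 (0.0668). Whether KD and OE libraries were handled in pairs cannot be told from these values. With the replicate number as a block, 6, 4 and 6 enzymes were called in KD, OE and between OE and KD, and 12015, 7854 and 10623 genes in all. The depth of single libraries cannot be read from rlog values, so no limit from depth is given.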
